A study of Mus musculus with 30 samples.

Results

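Regions where SMARCA4 was the only one of 4 chromatin remodelers with called peaks were described in mouse E14 embryonic stem cells. Peaks of CHD4, CHD8, SMARCA4 and SMARCA5 from cells without IAA (0 h, 2 lists per remodeler, 8 lists in all) were merged into regions wherever they overlapped by at least 1 bp on chromosomes 1 to 19 and X. Regions within 1 kb of a 0 h CTCF peak were dropped, and a region was kept where both SMARCA4 lists and none of the other 6 lists had a peak. This left 3580 SMARCA4-only regions of 186686 merged regions, of which 158483 lay more than 1 kb from CTCF. They made up a small part of the 42455 regions with a peak in both SMARCA4 lists, and the other 38875 of those also had a peak of at least 1 other remodeler. The rule used the 0 h peaks, so the 0 h SMARCA4 values below describe the selection and were not tested.

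All lists came from E14 cells grown in serum-free medium with leukemia inhibitory factor (LIF), the MEK inhibitor PD0325901 and the GSK3 inhibitor CHIR99021. Every group carried the CTCF AID allele, the 0 h controls included: CTCF is fused to an auxin-inducible degron, and the auxin IAA directs it to the proteasome. The 0 h group had no IAA and the 12 h group had 12 hours of it. CTCF and SMC1A, a cohesin subunit, were profiled in CTCF AID cells with 1 library per time. Each remodeler was profiled in a line of its own (CTCF AID and biotin-CHD4, biotin-CHD8, biotin-SMARCA4 or biotin-SMARCA5), with 2 libraries per remodeler and time. The labels do not say whether a line is 1 clone or whether the 2 libraries came from separate cultures, so the spread between libraries may be technical. Of 30 samples, the 20 with a peak list were analysed and the 10 inputs were not used here. The starts of Pou5f1, Sox2 and Nanog, which define embryonic stem cells, had a peak in both 0 h SMARCA4 lists. The CTCF list, which checks the treatment, held 29926 peaks at 0 h and 2247 at 12 h, and the SMC1A list 16723 and 10.

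SMARCA4 (BRG1) is the ATPase of the SWI/SNF or BAF complex, which slides and evicts nucleosomes and keeps regulatory DNA accessible. In embryonic stem cells a dedicated form of BAF sits at enhancers and promoters together with the pluripotency factors. CHD4 belongs to the NuRD complex, SMARCA5 to ISWI complexes that space nucleosomes, and CHD8 is a CHD-family remodeler found mainly at active promoters.

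The 4 highest ranking regions and 2 regions near genes of the naive pluripotent state are shown by the 200 bp around their replicate 1 summit, so that the letters counted later can be seen in place. Capitals mark matches, on either strand, to 6 short motifs: AP-1 (TGANTCA), TEAD (ACATTCC), the POU octamer (ATGCAAA), SOX (AACAATG), ESRRB (AAGGTCA) and KLF (GGGNGTG). Coordinates are GRCm38 (mm10), plus strand. The windows are chrX:47949893-47950092 in an intron of Ocrl, chr6:28729427-28729626 in an intron of Snd1, chr12:70813018-70813217 in an intron of the noncoding gene Gm40437 near Frmd6, and chr13:63231719-63231918 in an intron of 2010111I01Rik. The last 2 are chr9:78342500-78342699 in an intron of Gsta2 near Dppa5a and chr1:118658510-118658709 in an intron of Tfcp2l1.
Ocrl intron: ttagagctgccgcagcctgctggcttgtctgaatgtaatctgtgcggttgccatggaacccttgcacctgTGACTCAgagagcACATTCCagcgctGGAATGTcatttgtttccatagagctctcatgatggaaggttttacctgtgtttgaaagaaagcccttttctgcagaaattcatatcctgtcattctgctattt
Snd1 intron: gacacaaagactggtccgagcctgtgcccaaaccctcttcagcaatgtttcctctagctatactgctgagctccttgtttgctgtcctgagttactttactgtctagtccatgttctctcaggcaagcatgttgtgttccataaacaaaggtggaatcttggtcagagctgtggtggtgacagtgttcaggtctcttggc
Gm40437 intron near Frmd6: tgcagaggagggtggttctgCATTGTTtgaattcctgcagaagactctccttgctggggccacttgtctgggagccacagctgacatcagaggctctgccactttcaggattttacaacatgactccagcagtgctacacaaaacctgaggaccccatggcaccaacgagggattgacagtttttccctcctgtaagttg
2010111I01Rik intron: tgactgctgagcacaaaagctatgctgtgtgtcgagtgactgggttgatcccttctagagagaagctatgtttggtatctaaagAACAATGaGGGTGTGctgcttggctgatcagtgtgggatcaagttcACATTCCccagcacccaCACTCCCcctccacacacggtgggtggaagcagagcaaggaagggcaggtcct
Gsta2 intron near Dppa5a: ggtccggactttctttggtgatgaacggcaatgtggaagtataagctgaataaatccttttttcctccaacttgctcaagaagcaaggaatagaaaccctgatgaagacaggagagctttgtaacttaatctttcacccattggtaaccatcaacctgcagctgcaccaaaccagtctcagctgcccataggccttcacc
Tfcp2l1 intron: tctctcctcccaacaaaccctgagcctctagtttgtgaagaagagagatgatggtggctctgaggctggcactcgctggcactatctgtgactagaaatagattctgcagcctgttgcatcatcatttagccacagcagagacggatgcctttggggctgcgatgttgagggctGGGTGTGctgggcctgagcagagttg
The Ocrl window held 1 AP-1 and 2 TEAD matches, the 2 TEAD matches on opposite strands. The 2010111I01Rik window held 1 TEAD, 1 SOX and 2 KLF matches, and the windows near Frmd6 and in Tfcp2l1 held 1 match each. The Snd1 and Gsta2 windows held none of the 6, which says only that these letters are not in those windows.

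SMARCA4-only regions were narrow and ranked low among SMARCA4 peaks. Their median width was 608 bp (236 to 3303 bp), against 1454 bp for the SMARCA4 regions with another remodeler. Width is that of the merged region, and peaks of the other remodelers add to it in the regions that have them. The rule itself thus favours this difference in width, and no trait is read from it. Peaks were ranked within each list by the authors' −log10 p, so that the strongest peak has a percentile of 100. The median percentile of the SMARCA4-only regions was 38.0 in replicate 1 and 28.5 in replicate 2, against 72.2 and 63.0 for the regions with another remodeler. The authors' fold enrichment had a median of 3.54 and 3.52 in the 2 lists and reached 11.1 and 11.4. A −log10 q of at least 5 was held by 54.2% of the regions in replicate 1 and 31.8% in replicate 2. These ranks bear on each comparison with stronger regions, and values within classes of rank are given below.

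Membership depended on the lists that were required or forbidden. With SMARCA4 replicate 1 alone in the rule 18692 regions met it, and with replicate 2 alone 7800 did. Another 1942 regions missed it by a peak in CHD4 replicate 1 alone, 875 by CHD4 replicate 2 alone, 654 and 353 by SMARCA5 replicate 2 or 1 alone, and 271 and 64 by CHD8 replicate 1 or 2 alone. Among regions kept out by a single list, CHD4 thus accounted for the most. The 2 CHD4 lists at 0 h stood apart from each other, with 111934 and 187275 peaks and median peak widths of 433 bp and 119 bp. The distance to CTCF removed 222 regions that met the pattern, 101 of them overlapping a CTCF peak. Near the 1 kb limit, 71 regions at 500 to 1000 bp fell outside and 78 at 1000 to 1500 bp stayed inside.

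The SMARCA4-only regions lay in introns somewhat more often than the genome around them. By the summit of the replicate 1 peak and GENCODE M21, 2139 of 3580 regions (59.7%) were intronic, 1128 (31.5%) intergenic and 170 (4.75%) within 1 kb of a start site, here called promoters. The same intervals shifted by 100 kb to either side were 52.6% intronic, 36.8% intergenic and 5.84% promoters, so the promoter share was slightly below that of the shifted intervals. Coding exons held 59 regions, untranslated regions 58 and other exons 26. In SMARCA4 regions with another remodeler, promoters took 25.1%, and in the 11441 regions with peaks in all 8 lists they took 49.9%. The promoter share of SMARCA4-only regions was close to the 5.51% of the 3884 regions that had CHD4 and SMARCA4 in both lists each and no other remodeler.

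**Figure D1:**
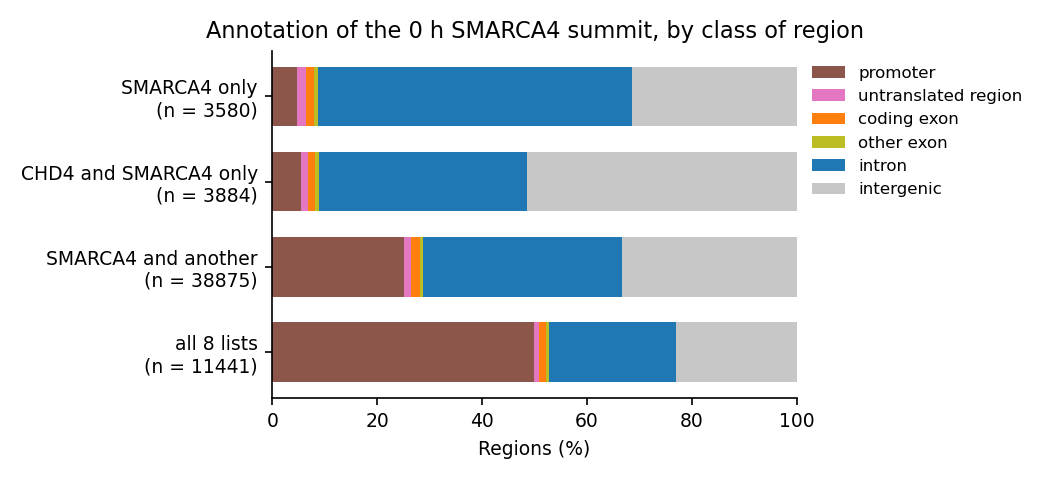
Bars give the percentage of regions in each annotation class, by the summit of the SMARCA4 replicate 1 peak, for SMARCA4-only regions and 3 other classes. Introns hold 59.7% of SMARCA4-only regions and 39.5% of CHD4 and SMARCA4 regions, which are mostly intergenic.

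Promoters left aside, 62.7% of SMARCA4-only regions were intronic (exact Clopper-Pearson 95% interval 61.1% to 64.4%, counting error over regions only), against 55.8% of the shifted intervals. The same share was 50.5% (49.9% to 51.0%) in SMARCA4 regions with another remodeler and 41.9% (40.3% to 43.5%) in CHD4 and SMARCA4 regions. Regions with CHD4 and SMARCA4 thus had a like promoter share but lay more often between genes. The median distance to a protein-coding start site was 24572.5 bp for SMARCA4-only regions, 16383 bp for regions with another remodeler and 38449.5 bp for CHD4 and SMARCA4 regions.

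The intronic share was higher in every class of rank. In the 4 classes of mean 0 h percentile from lowest to highest it was 64.3%, 62.8%, 60.0% and 57.1% in SMARCA4-only regions, and 50.7%, 51.5%, 51.2% and 49.1% in those with another remodeler. Only 44 SMARCA4-only regions stood in the highest class. The same split was made in each SMARCA4 list on its own, between its peaks away from CTCF that touched no peak of the other remodelers of that time and the rest. Outside promoters, the lone peaks were intronic in 61.6% against 50.8% and 57.6% against 49.8% at 0 h. At 12 h, in lists the rule did not use, the values were 59.3% against 49.5% and 58.6% against 49.8%. The lone peaks were more often intronic in 4 of 4 lists. The difference of 12.3 percentage points in the defined regions fell to 3.54 when every remodeler list was reduced to the length of the shortest, 40870 peaks. That step removed weak peaks of SMARCA4 and of the other remodelers alike, and their parts were not separated.

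Other remodelers were near but not at these regions. The nearest peak of any other remodeler was at a median gap of 1271 bp, against 3504.5 bp for the same intervals shifted by 100 kb to either side. The median gap was 1858.5 bp to CHD4 (4167 bp for shifted intervals), 3282.5 bp to SMARCA5 (9988.5 bp) and 5907.5 bp to CHD8 (12137.5 bp). Within 1 kb, however, CHD8 was near 11.1% of the regions and 13.9% of the shifted intervals, and the rule itself removed regions that touched a peak of these remodelers. A region with SMARCA4 and another remodeler lay within 10 kb of 69.5% of SMARCA4-only regions, against 42.9% of shifted intervals. The median gap to CTCF was 22249 bp, against 22182.5 bp for shifted intervals. No region but 5.96% of shifted intervals lay within 1 kb of CTCF, as the rule fixed for the regions alone, so nothing is read from this pair. Cohesin was scarce: SMC1A at 0 h had a peak in 3 of 3580 regions (0.0838%), below the 1.62% of shifted intervals, which the 1 kb distance to CTCF also affects. SMARCA4-only regions lay within 10 kb of each other in 602 cases (16.8%). By chromosome, they were 13.6% of the SMARCA4 regions on X (127 of 932) and between 6.18% and 9.64% on each autosome.

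The regions were spread over many genes. Of 21728 protein-coding genes, 2477 were the nearest to at least 1 region, 1828 of them to exactly 1 and 53 to 5 or more. The intronic regions in protein-coding genes numbered 1991, in 1423 host genes. The promoter of the host had a SMARCA4 peak in both 0 h lists in 88.1% of hosts (95% interval 86.3% to 89.8%), against 83.8% (82.8% to 84.8%) of genes hosting other intronic SMARCA4 regions and 58.8% of all protein-coding genes. The hosts were long, with a median of 92.3 kb against 60.4 kb and 17.4 kb.

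Dst, which encodes the cytoskeletal linker dystonin, was the nearest gene to the most regions, 11. Its introns held 7 SMARCA4-only regions, counted whichever start was nearest to them. Arl15, Tanc1 and Zfp281 followed with 10 regions each and Jarid2 with 8. The introns of Tanc1, a scaffold protein gene, also held 10 SMARCA4-only regions by that count. These were not the same 10, since the first region nearest to Tanc1 began at chr2:59602472, before the gene start at 59612042. Of the 10 regions nearest to Tanc1, 9 had a SMARCA4 peak in both 12 h lists. None of the 10 regions nearest to Zfp281, a zinc-finger factor of the pluripotency network, was in an intron of that short gene of 5.15 kb. They lay between chr1:136562573 and chr1:136701315, and 8 had a peak in both 12 h lists. For Jarid2, a subunit of Polycomb complex PRC2, only 1 of 8 regions had a peak in both 12 h lists and 4 had none, and for Arl15 the counts were 4 and 5 of 10. Another 9 genes were nearest to 7 regions each: Bnc2, Epha4, Gpc4, Magi1, Mkln1, Plpp3, Ptprg, Shroom3 and Tbl1xr1. All 14 genes had a SMARCA4 promoter peak in both 0 h lists. Their 112 regions had a SMARCA4 peak in both 12 h lists in 68 cases and in neither in 21, near the shares over all 3580 regions (55.4% and 16.7%).

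Genes of the pluripotency network and its signals, and of most other lists, often had a SMARCA4-only region within 50 kb of a start site. Over all protein-coding genes 16.4% had one, and 20.2% of those that also had another SMARCA4 region that near. In the naive pluripotency list 9 of 20 genes had one: Klf2, Klf4, Klf5, Esrrb, Tfcp2l1, Tbx3, Tcl1, Sox2 and Dppa5a. In the FGF, MAPK and LIF list it was 7 of 15, among them Lifr and Il6st, the 2 receptor chains for LIF, and Socs3, Spry2, Spry4 and Spred2, which restrain these pathways. The Wnt list had 8 of 18, with the targets Axin2 and Sp5, the receptor genes Fzd7 and Lrp6, the ubiquitin ligases Rnf43 and Znrf3, and Apc and Ccnd1. The formative and primed list had 6 of 15: Otx2, Dnmt3a, Lef1, Etv5, Sall2 and Grhl2. Every naive pluripotency gene also had another SMARCA4 region that near, so the list counts are not specific to SMARCA4-only regions. The lists were chosen with earlier results of these data known. Listed genes were not matched to all genes by the number of SMARCA4 regions nearby, and the differences in share were not tested. Fgfr2 was counted through an annotated transcript that starts in the Ctbp2 locus, far from the usual Fgfr2 start.

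The other lists had lower shares, from 6.25% to 33.3% of their genes. All of them but the neural and axon guidance lists were still above both the 16.4% and the 20.2% given above. A region that near was thus not particular to the pluripotency lists, and each list holds few genes. SWI/SNF subunits had a region in 8 of 27 genes (Arid1b, Arid2, Smarcc2, Smarcd1, Smarcd2, Actl6a, Ss18 and Bcl7a), Nodal, TGF-beta and BMP genes in 5 of 18 (Smad3, Smad6, Bambi, Bmp4 and Bmpr1a), and AP-1, SRF and YAP-TEAD genes in 5 of 20 (Ccn2, Fos, Tead1, Amotl2 and Yap1). Trophoblast genes had one in 4 of 12 (Tfap2c, Tfap2a, Tead4 and Esx1) and mesoderm and endoderm regulators in 4 of 15 (Gsc, Foxa2, Gata4 and Hand1). Neural regulators had one in 1 of 16 (Meis2) and axon guidance genes in 2 of 20 (Ntn1 and Epha4), both below the share over all genes.

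Single loci differed in strength and in what was called at 12 h. Klf4, a core naive factor, had a region in a coding exon at chr4:55528077-55528409, with percentiles of 71.0 and 40.2 at 0 h and a 12 h SMARCA4 peak in replicate 1 only (39.3), whose summit lay outside the region. Near Dppa5a, a naive marker gene, the strongest of 3 regions lay in an intron of Gsta2 at chr9:78342331-78342754, with percentiles of 81.3 and 63.1 at 0 h and 87.4 and 95.5 at 12 h. In an intron of Esrrb, at chr12:86430247-86430700, the region ranked 39.0 and 21.5 at 0 h and 14.0 and 0.223 at 12 h. A region in an intron of Lifr at chr15:7143659-7144383 ranked 77.2 and 4.07 at 0 h, so the 2 lists placed the same region far apart. Yap1, the YAP co-activator of TEAD factors, had 3 intronic regions, all with peaks in both 12 h lists.

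Near Sox2, in an intron of Sox2ot at chr3:34657880-34658560, a weak region (percentiles 3.37 and 15.2 at 0 h) touched very strong 12 h SMARCA4 peaks (97.5 and 99.0). Near Gsc, at chr12:104451105-104451522, the same was seen (21.6 and 37.3, then 99.0 and 98.6). In neither did a 12 h summit lie inside the 0 h region, so these percentiles belong to peaks centred outside it. Over the 88 regions near listed genes, 55 touched a peak in both 12 h SMARCA4 lists and 12 in neither, again near the 55.4% and 16.7% over all SMARCA4-only regions, and 43 held a summit of both.

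The nearest protein-coding starts to the 10 strongest regions were those of Ocrl, Lrrc4, Frmd6, Fancc, Fnbp1, Gjb5, Olfr743, Nipbl, Zfp82 and Hormad2. They lay between 5388 bp (Zfp82) and 261931 bp (Gjb5) away, and Fancc (199875 bp), Lrrc4 (100818 bp) and Hormad2 (60465 bp) were also more than 50 kb away. Of these 10 regions, 7 were intronic, 2 intergenic and 1 in a coding exon. A SMARCA4 peak was in both 12 h lists at 9 of them, against 55.4% of all 3580 regions. The first, chrX:47949321-47950944 in Ocrl, the phosphatase gene of Lowe syndrome, had fold enrichments of 9.01 and 10.8 at 0 h and 9.16 and 11.6 at 12 h, and no peak of another remodeler at 12 h. Each fold enrichment is relative to the background of its own list. The region in Nipbl, the cohesin loader gene, at chr15:8420753-8421634 had 11.1 and 7.05 at 0 h and 4.76 and 4.25 at 12 h. The region whose nearest start was that of Gjb5, at chr4:127619834-127620289, kept a peak in 1 of 2 lists.

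The 5 widest regions, from 2329 to 3303 bp, lay nearest to the starts of Cga, Frmd6, Dupd1 (inside Kat6b), Mras and Gm1043 (inside Jakmip1). All 5 touched a SMARCA4 peak in both 12 h lists and at least 1 peak of another remodeler there. Over all 3580 regions, 55.4% had a SMARCA4 peak in both lists and 51.8% had no peak of another remodeler. These 5 were picked by width, and a wider region is touched more easily under an overlap of 1 bp.

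At 12 h, after CTCF had been targeted for degradation, SMARCA4 peaks were still called at most of these regions. A peak was present at 73.2% of them in replicate 1 and 65.4% in replicate 2 (mean 69.3% ± 5.47, SD, n = 2), against 13.3% and 14.1% of shifted intervals. For CHD4 the values were 25.3% and 13.1% (shifted 11.1% and 8.06%), for SMARCA5 14.2% and 13.8% (7.14% and 7.15%), and for CHD8 6.17% and 3.32% (6.38% and 5.20%). Both SMARCA4 libraries were above all 6 others, and CHD8 was below its shifted value in both. With a summit inside the region required, CHD8 was above it instead (5.56% against 2.88% and 2.96% against 2.64%). Above the shifted value, the SMARCA4 mean was 55.6 percentage points and the mean of the other 6 libraries 5.14, a difference of 50.5. An exact one-sided permutation test over 2 against 6 libraries gave p = 0.0357, the smallest that its 28 relabellings allow. The 0 h rule asked for SMARCA4 and against the other 3, so the test says only that the order set by the choice was found again in other libraries of the same lines. It passed no longer with the replicate block (exact permutation p = 0.0625) or without either 12 h SMARCA4 library (exact permutation p = 0.143), where no smaller p is possible. Cell line and list length go with the target and cannot be told apart from it.

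**Figure D2:**
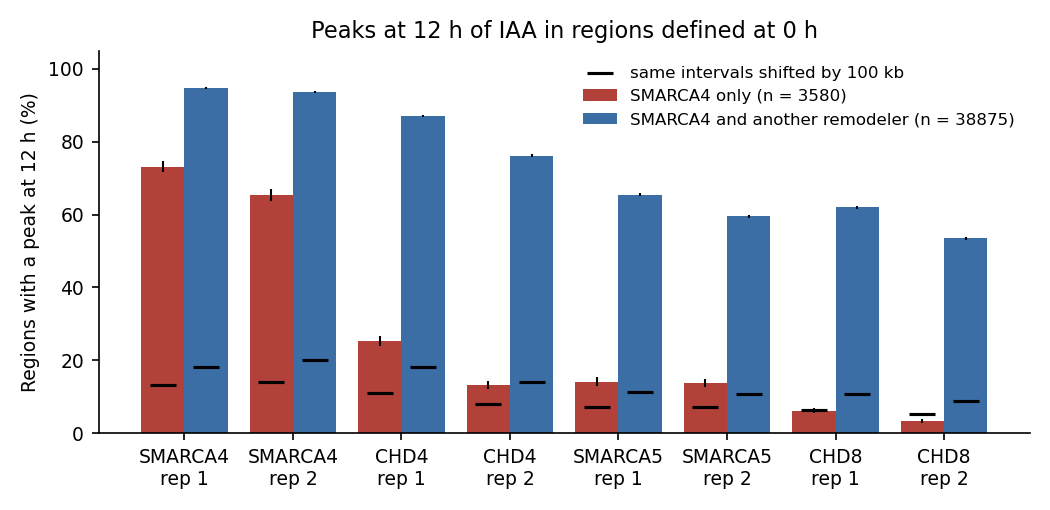
Bars give the percentage of 0 h regions with a peak in each 12 h library (error bars, exact 95% binomial intervals over regions), and black ticks the same intervals shifted by 100 kb. In SMARCA4-only regions the SMARCA4 libraries reach 73.2% and 65.4% and no other library passes 25.3%.

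Fewer SMARCA4-only regions kept a SMARCA4 peak than SMARCA4 regions in general. Both 12 h lists had a peak at 1982 regions (55.4%), where 87.7% of all SMARCA4 regions away from CTCF did. Neither list had one at 599 (16.7%), against 3.48% of all SMARCA4 regions, and 999 had one in 1 list. The difference was smaller within classes of 0 h rank. In the lowest class, 59.4% and 51.9% of SMARCA4-only regions had a peak at 12 h in the 2 lists, against 75.4% and 74.3% of those with another remodeler. In the next class it was 74.9% and 66.9% against 88.3% and 86.2%, and in the third 90.9% and 83.4% against 97.6% and 95.8%. The 44 regions of the highest class had a peak in 100% and 93.2%. When a summit inside the region was required, SMARCA4 occupancy of SMARCA4-only regions was 60.3% and 54.8%, and that of regions with another remodeler 91.5% and 90.1%. The regions with another remodeler were also wider, with a median of 1454 bp against 608 bp. Their mean shifted background for SMARCA4 at 12 h was 19.2% against 13.7%. The part of width in the difference was not tested.

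**Figure D3:**
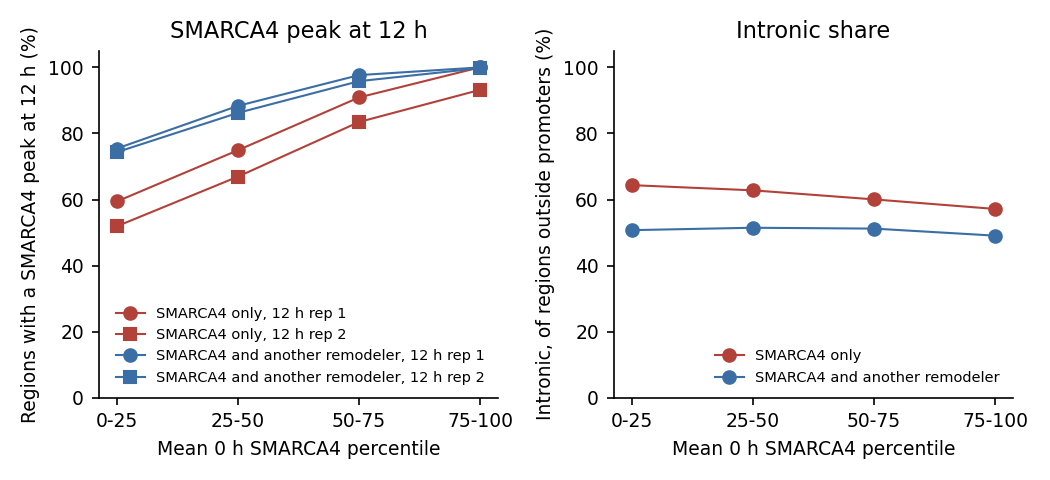
Left, percentage of regions with a SMARCA4 peak in each 12 h list, by class of mean 0 h percentile. Right, intronic percentage of regions outside promoters in the same classes. SMARCA4-only regions are lower on the left and higher on the right in each class, except at 100% in 12 h replicate 1 of the highest class.

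The regions that kept both peaks had been stronger and wider at 0 h. Their median mean percentile was 38.0 and their median width 688 bp, against 25.7 and 495 bp for the regions with neither, while the intronic share was alike at 59.0% and 59.9%. Among regions with both 12 h SMARCA4 peaks, 61.0% also had a peak of another remodeler in at least 1 of the 6 lists, against 24.9% of the regions with neither. Peaks that were called at 12 h had a median percentile of 47.7 in replicate 1 and 47.5 in replicate 2.

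The highest ranking regions without a SMARCA4 peak at 12 h were near Kif1a, Arl15, Immp2l, Bcas3 and Ceacam18. The region near Kif1a, a kinesin motor gene, at chr1:93114803-93115859 had 0 h fold enrichments of 6.23 and 5.24, and at 12 h peaks in 2 CHD4 lists and 1 CHD8 list. The region in Arl15 at chr13:113929382-113930506 had 5.56 and 5.36, and 1 SMARCA5 peak at 12 h.

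Other remodelers were called together at few regions at 12 h. No peak of the other 3 remodelers was present at 1853 regions (51.8%), and 773 (21.6%) had SMARCA4 in both lists and none of the others. The same counts were not made for other SMARCA4 regions or for shifted intervals, so nothing is read from their size. CHD4 was called in both 12 h lists at 240 regions (6.70%), where 8.67% of all SMARCA4 regions without CHD4 at 0 h had it. For SMARCA5 the count was 144 (4.02%, against 9.41% of SMARCA4 regions without SMARCA5 at 0 h), and for CHD8 39 (1.09%, against 6.59%). All 3 shares were below those of the SMARCA4 regions that lacked the same remodeler at 0 h. Those sets include the SMARCA4-only regions themselves, 3580 of 5816 in the case of CHD4. The rest of each set had a peak of another remodeler at 0 h, and rank and width were not matched. At least 4 of the 6 lists had a peak at 51 regions (1.42%), a count also not made for other SMARCA4 regions. The strongest of the 51 were near Rad54l2, Kcnk5, Lax1, Arid1b and Frmd4a. The region in an intron of Arid1b, itself a BAF subunit gene, at chr17:5085943-5086296 touched 4 such peaks and a SMARCA4 peak in both lists, but held the summit of neither SMARCA4 peak.

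Left-out lists of CHD4 and SMARCA5 had peaks at the regions chosen without them more often than at shifted intervals, while those of CHD8 were close to or below that background. When CHD4 replicate 1 was left out of the rule, its peaks were found at 35.2% of the 5522 regions then chosen (10.8% of shifted intervals), and the 12 h CHD4 lists gave 37.7% and 20.2%. When CHD4 replicate 2 was left out, it had 19.6% of 4455 regions (shifted 10.03%), and the 12 h lists 31.5% and 17.6%. For SMARCA5 the left-out 0 h lists gave 8.98% and 15.4% (shifted 5.84% and 7.51%), and the 12 h lists 15.9% and 17.1% on average. For CHD8 they gave 7.04% and 1.76% (shifted 6.70% and 4.99%), and the 12 h lists 6.56% and 5.16% on average. Each left-out CHD4 list lay between the 2 values at 12 h, and each left-out SMARCA5 list lay below its 12 h mean.

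SMARCA4 at 12 h was compared with a 0 h list that had taken no part in the choice. Of the 18692 regions chosen on SMARCA4 replicate 1, the held-out 0 h replicate 2 had a peak at 19.2%, and the 12 h lists at 37.3% and 41.9%. Of the 7800 chosen on replicate 2, the held-out replicate 1 had a peak at 45.9%, and the 12 h lists at 56.6% and 47.5%. The held-out 0 h value was thus lower than both 12 h values each time, by 13.3 percentage points on average (−20.5 and −6.17). List lengths differed (92452 and 70427 peaks before IAA, then 96363 and 102634), and the shortest list gave the lowest value. With all lists reduced to 40870 peaks the 2 differences were 1.03 and −4.26 (mean −1.61), and with a summit inside the region −8.23 and 8.63 (mean 0.199), so their signs were opposite under both. With 2 libraries against 2, no exact two-sided permutation p below 0.333 is possible, and no loss or gain of SMARCA4 peaks at 12 h was shown.

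**Figure D4:**
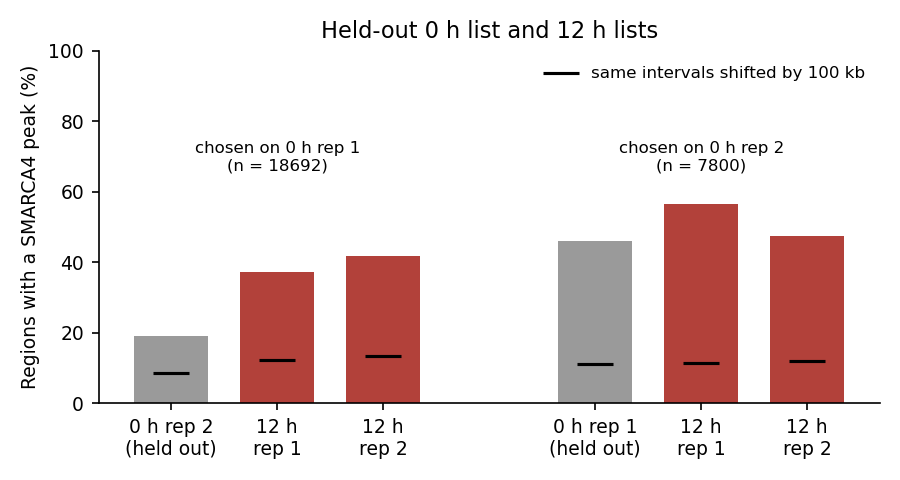
Bars give the percentage of regions with a SMARCA4 peak in the 0 h list left out of the rule (grey) and in the 12 h lists (red), for regions chosen on either 0 h list, and black ticks the shifted intervals. Held-out values of 19.2% and 45.9% lie under the 12 h values beside them.

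Peaks are named in 2 styles in the lists, and the styles cross the 2 times: 0 h replicate 2 shares a style with 12 h replicate 1, and 0 h replicate 1 with 12 h replicate 2. Within a style the held-out and 12 h values were 19.2% against 37.3% and 45.9% against 47.5%. The part of the style in these values was not tested.

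The same rule applied to the 12 h remodeler lists, still away from 0 h CTCF peaks, gave 6376 regions. Of the 3580 SMARCA4-only regions, 679 (19.0%) overlapped one of them, and 687 (10.8%) of the 12 h regions overlapped a 0 h one. This overlap was not counted for other classes of SMARCA4 region. Leaving 1 list out of the 0 h rule also moved its membership, to as many as 18692 regions, so the overlap is no measure of a change over time. The 5689 regions of the 12 h rule that overlapped no 0 h SMARCA4-only region shared the intronic position. Outside promoters 59.5% of them were in introns, against 49.5% of the 46785 SMARCA4 regions of 12 h with another remodeler. At 0 h, SMARCA4 peaks lay in 56.0% and 33.6% of these 5689 regions (shifted 14.3% and 10.2%).

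The DNA under the summits was moderately rich in G and C and poor in repeats. The 200 bp windows had 46.8% ± 5.77 GC (SD over 3580 regions), against 44.0% in shifted windows and 51.7% in regions with another remodeler. Repeats covered 16.7% of the bases, against 29.4% in shifted windows and 16.4% in regions with another remodeler. Outside promoters the cover was 16.7% in SMARCA4-only windows and 19.6% in those with another remodeler. A low repeat cover was thus not particular to SMARCA4-only regions. Windows outside promoters were searched on both strands for 17 motifs: the 6 above and a GC box bound by SP factors (GGGCGG), TCF/LEF (ATCAAAG), the motif of GATA factors (AGATAA), ETS (CCGGAAG), the plain E-box (CAGCTG), the E-box preferred by MYC (CACGTG), NRF1 (TGCGCA), FOX (GTAAACA), ZIC (CAGCAGG), part of the CTCF motif (AGGGGGC) and the CCAAT box, which is named by its letters. Matches of different motifs may overlap, and a match describes letters, not binding.

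In SMARCA4-only windows, 7 motifs were more frequent than in shifted windows, with 95% intervals that did not overlap. TEAD, the partner of YAP, was found in 4.37% against 2.42%, ZIC in 8.18% against 4.74%, and ESRRB, an orphan nuclear receptor of naive cells, in 6.22% against 3.79%. The E-box was found in 12.6% against 8.20%, KLF in 15.6% against 11.1%, the GC box in 3.61% against 2.27% and AP-1 in 6.92% against 5.47%. GATA (9.74% against 13.1%) and the CCAAT box (22.1% against 26.5%) were less frequent. The octamer (5.01% against 4.50%) and SOX (3.72% against 3.70%), the motifs of OCT4 and SOX2, had overlapping intervals. The GC content of the windows moved with these shares, and its part was not tested.

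**Figure D5:**
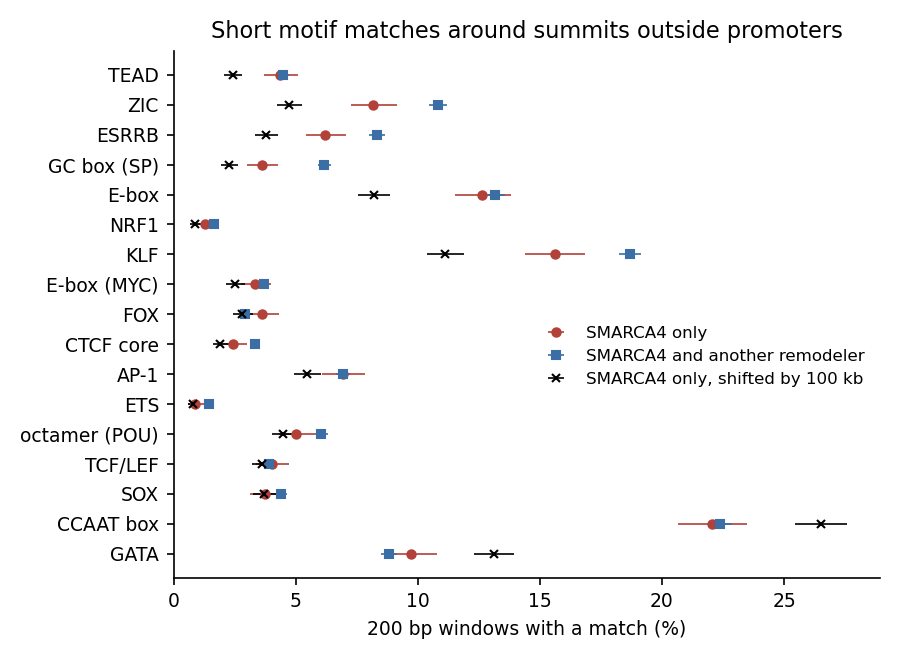
Points give the percentage of 200 bp windows outside promoters with a match to each motif, with exact 95% binomial intervals, for SMARCA4-only regions, SMARCA4 regions with another remodeler and shifted intervals. TEAD is at 4.37% and 4.49% in the 2 classes of SMARCA4 region and at 2.42% in shifted intervals.

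No motif was more frequent in SMARCA4-only windows than in those with another remodeler at intervals that did not overlap, and 6 were less frequent: ESRRB (6.22% against 8.34%), KLF (15.6% against 18.7%), the GC box (3.61% against 6.18%), ZIC (8.18% against 10.8%), the CTCF part motif (2.43% against 3.32%) and ETS (0.880% against 1.43%). TEAD (4.37% against 4.49%) and AP-1 (6.92% against 6.95%) were at like levels in both, with overlapping intervals. Windows of CHD4 and SMARCA4 regions had more of the octamer (7.49%), SOX (5.34%), ESRRB (9.37%), KLF (19.4%) and ZIC (13.6%) than SMARCA4-only windows. The intervals of these motifs did not overlap, and no motif was less frequent in CHD4 and SMARCA4 windows at such intervals. By the replicate 2 summits of SMARCA4-only regions, the CTCF part motif was at 2.61%. Its interval then overlapped that of the regions with another remodeler, while the other motifs named as less frequent there kept separate intervals. The Ocrl window printed above, with its AP-1 and TEAD matches, is one of the windows behind the SMARCA4-only shares.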

How the data were processed

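Chromatin immunoprecipitation followed by sequencing was deposited as 1 peak list per sample, with 10 columns and no header. The submitters' processing notes name Trim Galore, Bowtie2, MACS2 and deepTools and the builds mm10 and hg38; versions, settings and the control are not given in the sources used here. Column 7 of the deposited lists was read as fold enrichment (a ratio), per the layout and the values, columns 8 and 9 as the authors' −log10 p and −log10 q, and column 10 as the summit's offset in bp. The lowest −log10 q was 1.30. Where values of several lists stand side by side, each is relative to its own list, and no change is read from them. Read counts were not analysed here, so depth is unknown, and a missing peak can be signal under the threshold. All peaks ended within the GRCm38 chromosomes, and GENCODE M21 was used.

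Regions were merged, annotated and compared in Python 3.11.15 (NumPy 2.4.6, pandas 2.3.3, SciPy 1.17.1, pysam 0.24.0, samtools 1.23.1), and the steps were tested on simulated lists. Occupancy is the percentage of regions overlapped by at least 1 bp. The background is the mean of shifts by 100 kb in both directions. Libraries were the units of the test and were exchanged across the cell lines, although the 2 libraries of a remodeler share a line. The p-values describe only the order of these libraries, and the spread between lines of 1 remodeler is not measured. Intervals (exact Clopper-Pearson, 95%) treat regions as independent. The regions, the 11 gene lists (198 genes) and the motifs were chosen with earlier results of these data known. Named were the 10 highest ranking regions, the 5 highest without a SMARCA4 peak at 12 h, the 5 highest with at least 4 other libraries at 12 h, the 5 widest, the genes nearest to most regions with ties at the tenth, and listed genes within 50 kb. Regions were also named for Klf4, Dppa5a, Esrrb, Lifr, Sox2, Gsc and Yap1 among the listed genes, chosen after their values were seen. Splits by list, by rank class and at 12 h, and the left-out lists of the other remodelers, were added after seeing the data.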

Additional observations from a re-analysis of the deposited data

How the results depend on the processing

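The 12 h difference between SMARCA4 and the other libraries kept its direction under every alternative run. It was between 43.9 and 56.6 percentage points with p = 0.0357 (exact permutation) where regions, peaks, overlap or shift were changed. The 0 h rule had asked for this order under each alternative, and that p is the smallest the design allows. The unchanged p is therefore no added evidence. The difference passed the threshold no longer with the replicate block, in which labels were exchanged only within a replicate number (50.5, exact permutation p = 0.0625, the smallest possible). Leaving out 1 library gave 46.2 to 54.8, with p = 0.143 (exact permutation, the floor of that design) without either SMARCA4 library and 0.0476 without any other. The numbers were not taken to pair the libraries: deviations of same-numbered SMARCA4 libraries correlated at −0.06 over 130082 regions.

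SMARCA4 occupancy at 12 h was 60.5% with equal list lengths and 57.6% by summits, and 65.4% to 73.2% without 1 library. Its excess over shifted intervals was 46.7 points with a shift of 10 kb (55.6 with 100 kb). The held-out difference was −1.61 with equal list lengths (1.03 and −4.26 in the 2 choices), 0.199 (reversed) by summits (−8.23 and 8.63), −16.7 with the replicate block, −9.90 within a naming style, and −20.5 to −6.17 with 1 library left out. The number of regions was 2350 with equal list lengths and 3644 to 18692 without 1 list; SMARCA4 replicate 1, SMARCA4 replicate 2 and CHD4 replicate 1 moved it by over 1.5 times (7800, 18692 and 5522). The promoter share was 6.51% at a −log10 q of at least 5, 5.57% with equal list lengths, 12.7% at 2.5 kb, and 4.60% to 6.54% without 1 SMARCA4 list. The intronic difference was 10.4 points at a −log10 q of at least 5 and 3.54 with equal list lengths. Depth limits all of these, since peaks under the threshold are not listed. Among 34 motif shares recomputed, 1 left its interval, TEAD at replicate 2 summits (5.17%).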
